A study of Glycine max with 46 samples.

Results

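Laccases are multicopper oxidases that plant cells secrete into the wall, and 59 of the 56044 soybean (Glycine max) genes in the tables were described as laccases. A gene was taken as a member when the description of its closest Arabidopsis match contained the word laccase, and each gene was represented by its transcript model with the longest cDNA. The closest Arabidopsis genes were LAC17 for 12 members, LAC4 (also IRX12) for 9, LAC7 for 7, LAC15 (also TT10) for 6, LAC3, LAC5 and LAC11 for 4 each, LAC2 for 3, LAC6 and LAC14 for 2 each and LAC1, LAC8 and LAC10 for 1 each. The other 3 members carried the family description with no gene name. The names in parentheses below are those of the closest Arabidopsis gene, and a shared name is not a shown function in soybean.

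Laccases use oxygen to turn phenolic molecules into radicals, which then couple to one another. In Arabidopsis, LAC4, LAC11 and LAC17 polymerise monolignols into lignin in the walls of vessels and fibres. LAC15/TT10 acts in the Arabidopsis seed coat, where it oxidises flavonoids such as epicatechin and so browns the coat.

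RNA sequencing values came from 46 libraries in 24 groups. The hilum (the scar left on the seed by its stalk) and the coat without hilum were dissected from Williams seeds (genotype i-i RT w1, yellow coat with a black hilum) at 25-50 mg and 50-100 mg fresh weight, with 2 biological repeats of each. Whole seed coats came from T157 (i R t, imperfect black) and Richland (I R t, yellow) with 4 weight classes each, and from W44 (i RT w1, black, an inversion at the i locus; 6 libraries), W55 (i mutation, black, a deletion at the i locus; 2 libraries at 300-400 and 400-500 mg) and W43 (i-i RT w1, yellow coat, black hilum; 5 libraries), with 1 library per line and weight class. Both of these W55 libraries carry the genotype label i-i RT w1 beside the phenotype of the i mutation, while the other W55 seed libraries carry i R w1. Coats of 5-6 mg seeds came from W55 (2 libraries), UC9 (Clark, i R T W1, black, a deletion at the i locus), UC501 (Harosoy, I r T W1, yellow) and UC508 (a Harosoy isoline with defective coats, I r T W1, Def, net), and a 25-50 mg coat from RM38 (Clark isoline, i r T W1, brown). The remaining libraries were whole seeds 5 days after flowering (2 of W55, 1 each of T157 and Richland), young roots of W55 (i RT w1) and W54 (named as the same line as W43), young leaves of T157 and Richland, all 4 from 4-week greenhouse plants, roots of 5-day Williams seedlings flooded for 12 h or 24 h, and flowers of a purple-flowered Williams W1 isoline.

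Levels are RPKM, that is, reads scaled to cDNA length in kilobases and to 1 M counted alignments, so they can be set side by side between genes. Counted alignments ran from 18.1 M to 545 M per library, and 3 reads in a 2 kb model, taken as the limit that a count of 0 allows, stood for an RPKM of 0.0830 in the shallowest and 0.00275 in the deepest. Such limits cover counting error only. The dissected parts have biological repeats per the labels, but elsewhere lines or weight classes stand in for replicates, and p-values measure only the spread between these libraries. Alignments to models with no Arabidopsis description made up 88.6% and 80.6% of the W55 5-6 mg coats and 56.2% of the W44 50-100 mg coat, against 7.58% to 18.05% in the other 43 libraries. All RPKM in those 3 libraries are lowered by that share. Leaf identity was plain: the summed RPKM of photosystem and light-harvesting genes was 21155 and 46440 in young leaves and 5285 or less elsewhere. In such bulk samples fewer cells of a type and less RNA per cell cannot be told apart.

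Of the 59 laccases, 52 reached an RPKM of 1 in at least 1 library, 29 reached 5, 19 reached 10 and 2 reached 50. Each of the 52 was placed by the tissue of its highest library. Young root held the highest level of 22, young leaf of 8, hilum of 6, coat without hilum of 6, flooded root of 4, coats of 300-500 mg of 3, coats of 10-100 mg of 2 and flower of 1. Roots therefore showed many laccases at moderate levels, while seed coats showed few. Summed over the family, laccase RPKM was 260.0 and 271.9 in young roots, spread over 31 members at 1 or more in each. It was 297.8 to 446.9 in hilum with 12 to 20 such members, and 212.2 to 504.1 in coat without hilum with 6 to 9. Young leaves summed to 37.7 and 71.6, the flower to 40.3, flooded roots to 118.0 and 180.4 and whole seeds to between 18.2 and 29.6.

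**Figure D1:**
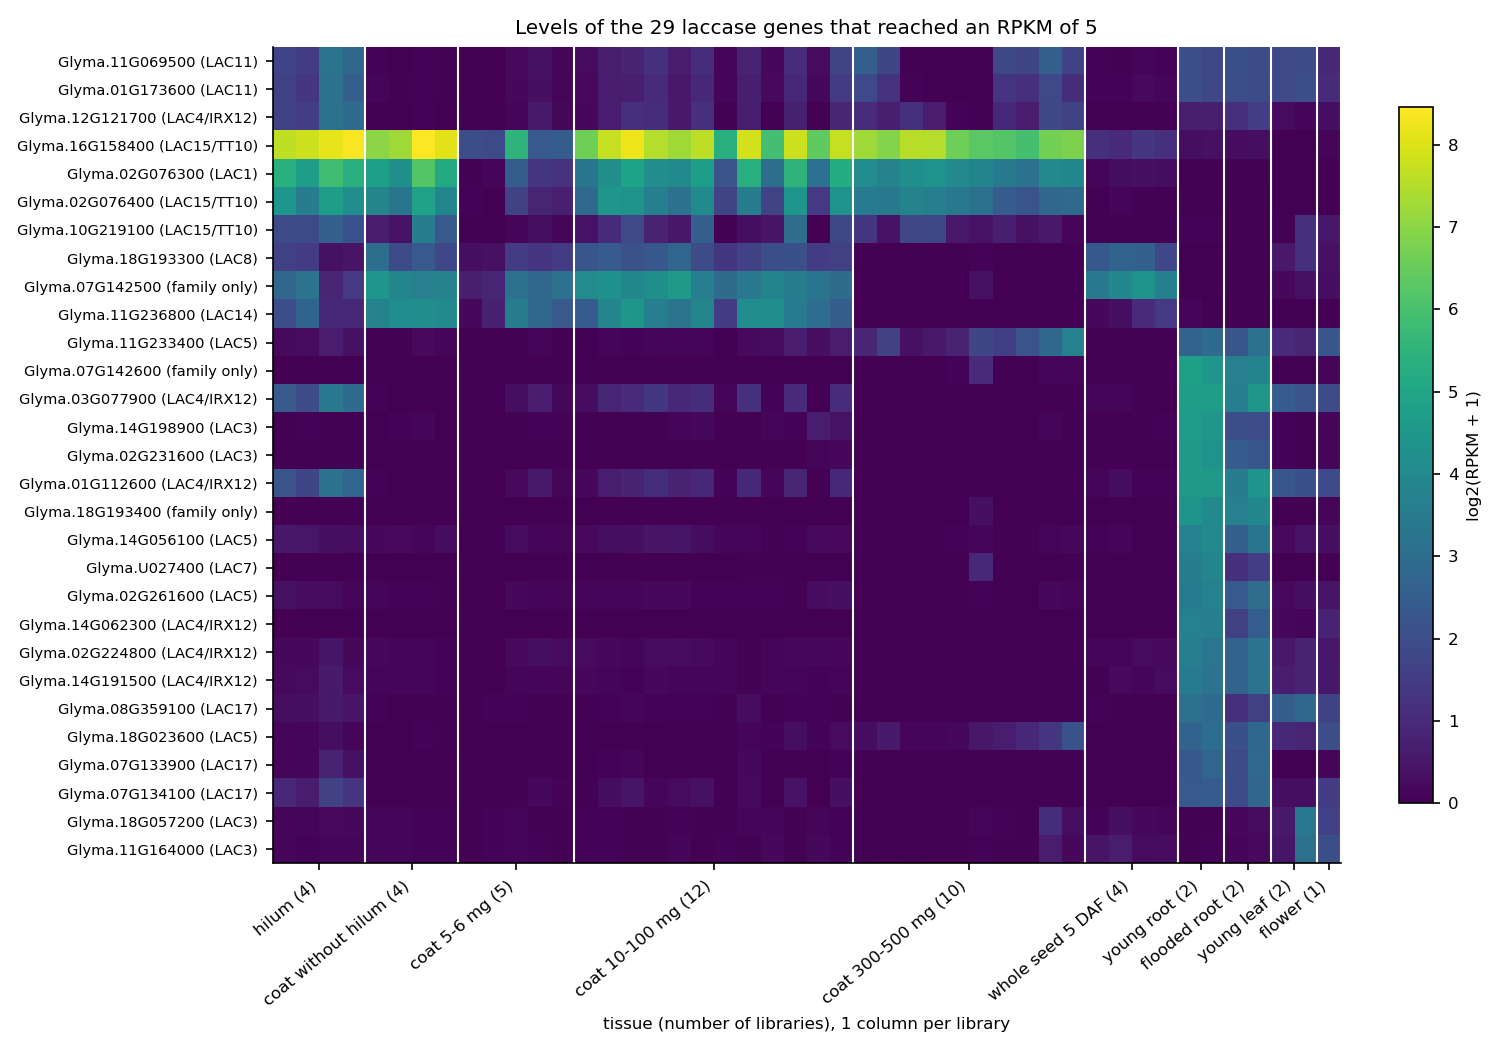
Level of each laccase that reached an RPKM of 5 (29 genes, rows) in each library (columns, grouped by tissue), coloured by log2(RPKM + 1). The row of Glyma.16G158400 is brightest across coat and hilum, the lower block of rows is bright in roots, and only a few rows are bright in both.

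A single gene supplied most laccase RNA of the seed coat. Glyma.16G158400 (LAC15/TT10) made up 54.7% to 83.5% of the summed laccase RPKM (median 71.4%) in the 30 hilum, coat without hilum and coat libraries of seeds of 10 mg or more. Its highest levels were 351.2 in a 50-100 mg coat without hilum, 336.8 in a 50-100 mg hilum and, among whole coats, 300.2 in the W43 50-100 mg coat. Outside seed coats it was nearly silent: it stood at 0.253 and 0.301 in young roots, 0.228 and 0.229 in flooded roots, 0.117 in flower and 0.0119 in the T157 leaf, and no read was counted in the Richland leaf. Whole seeds 5 days after flowering held 1.06 to 1.55.

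Glyma.02G076300 (LAC1, a model of 630 bases) and Glyma.02G076400 (LAC15/TT10, 449 bases) are short neighbours on chromosome 2 that followed it. In the same 30 libraries Glyma.02G076300 stood at 8.25% to 20.8% of the RPKM of Glyma.16G158400 and Glyma.02G076400 at 1.95% to 10.5%. Their peaks of 71.5 and 28.015 fell in the very library where Glyma.16G158400 peaked. How reads that match several models were counted is not known, so whether these 3 genes share reads was not tested.

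The hilum carried laccases that the rest of the coat almost lacked. The 5 members called higher in hilum are closest to LAC4/IRX12 (3) and LAC11 (2), and the 3 members that were lower are closest to LAC14, LAC8 and the family alone. With no filter on low values 25 of the 59 members were called higher, where 10.6% of all 52460 genes were. Of these 25, 7 are closest to LAC17, 5 to LAC4/IRX12, 4 each to LAC11 and LAC5, 3 to LAC2 and 1 each to LAC6 and LAC7. Many of them are low: the LAC5, LAC6 and LAC7 members reached at most 0.589 RPKM in the dissected parts. Of all 29296 genes tested, 40% were called (limma, adjusted p under 0.05), 13.4% higher and 26.6% lower, and of the 13 laccases tested 5 were higher, 3 were lower and 5 were not called. The other 46 had a mean RPKM under 1 in the 8 libraries. All 5 higher members passed that filter only through the hilum, so they had to differ and their number is no support.

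Glyma.03G077900 (LAC4/IRX12) stood at 4.18 and 2.90 RPKM in 25-50 mg hilum and 9.71 and 6.79 in 50-100 mg hilum, against 0.0510, 0.00509, 0.0217 and 0.0107 in coat without hilum. Every hilum library lay far above every coat library. The mean was 5.90 ± 3.01 in hilum and 0.0221 ± 0.0205 in coat without hilum (SD, n = 4 each), a log2(RPKM + 1) difference of 2.65 ± 0.23 (SE, limma adjusted p = 0.000171). Glyma.01G112600 (LAC4/IRX12) had 3.44, 2.41, 8.22 and 5.76 in hilum, against 0.0609, 0.00449, 0.0123 and 0.00945 in coat without hilum (log2 difference 2.44 ± 0.23, limma adjusted p = 0.000247). It repeated the pattern of Glyma.03G077900 at slightly lower levels. Glyma.12G121700 (LAC4/IRX12) had 2.02, 1.92, 7.83 and 6.82 in hilum and 0.0157, 0.0107, 0.0565 and 0.0224 in coat without hilum (2.28 ± 0.27, limma adjusted p = 0.000729).

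Of the LAC11 members, Glyma.11G069500 had 2.25, 1.87, 8.65 and 5.97 RPKM in hilum, against 0.0512, 0.0204, 0.0549 and 0.0268 in coat without hilum (2.27 ± 0.28, limma adjusted p = 0.00084). Glyma.01G173600 had 2.03, 1.55, 7.95 and 4.87 in hilum and 0.0721, 0.0255, 0.0548 and 0.0428 in coat without hilum (2.10 ± 0.29, limma adjusted p = 0.00129). Both were highest in the 50-100 mg hilum libraries, and the groups did not overlap for either. Across the 24 libraries with more than 100 reads in Glyma.11G069500, the RPKM of Glyma.01G173600 was 52.3% to 108% of it. That share was 52.3% to 56.8% in late coats of T157, Richland and W43 and 98.05% to 105% in roots and leaves, young and flooded, and whether the pair shares reads was not tested.

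Glyma.11G236800 (LAC14) was the laccase most lowered in hilum. It had 3.07, 5.59, 0.905 and 0.925 RPKM in hilum, against 12.9, 16.2, 16.7 and 15.5 in coat without hilum, with a log2 difference of -2.37 ± 0.32 (limma adjusted p = 0.00126). Glyma.07G142500 (family description alone) had 5.96, 8.41, 0.861 and 1.63 in hilum and 20.4, 13.5, 11.9 and 12.9 in coat without hilum (-1.86 ± 0.31, limma adjusted p = 0.00328). Glyma.18G193300 (LAC8) had 2.01, 1.80, 0.310 and 0.363 in hilum and 7.33, 2.95, 4.16 and 2.60 in coat without hilum (-1.34 ± 0.26, limma adjusted p = 0.00585). For each of these genes the 50-100 mg hilum libraries were the lowest. Ranges did not overlap between hilum and coat without hilum for 8 of the 13 laccases tested, and for 32.3% of all genes tested. Those 8 are the called members, and 5 of them passed the filter only through the hilum, so this count is no support either.

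**Figure D2:**
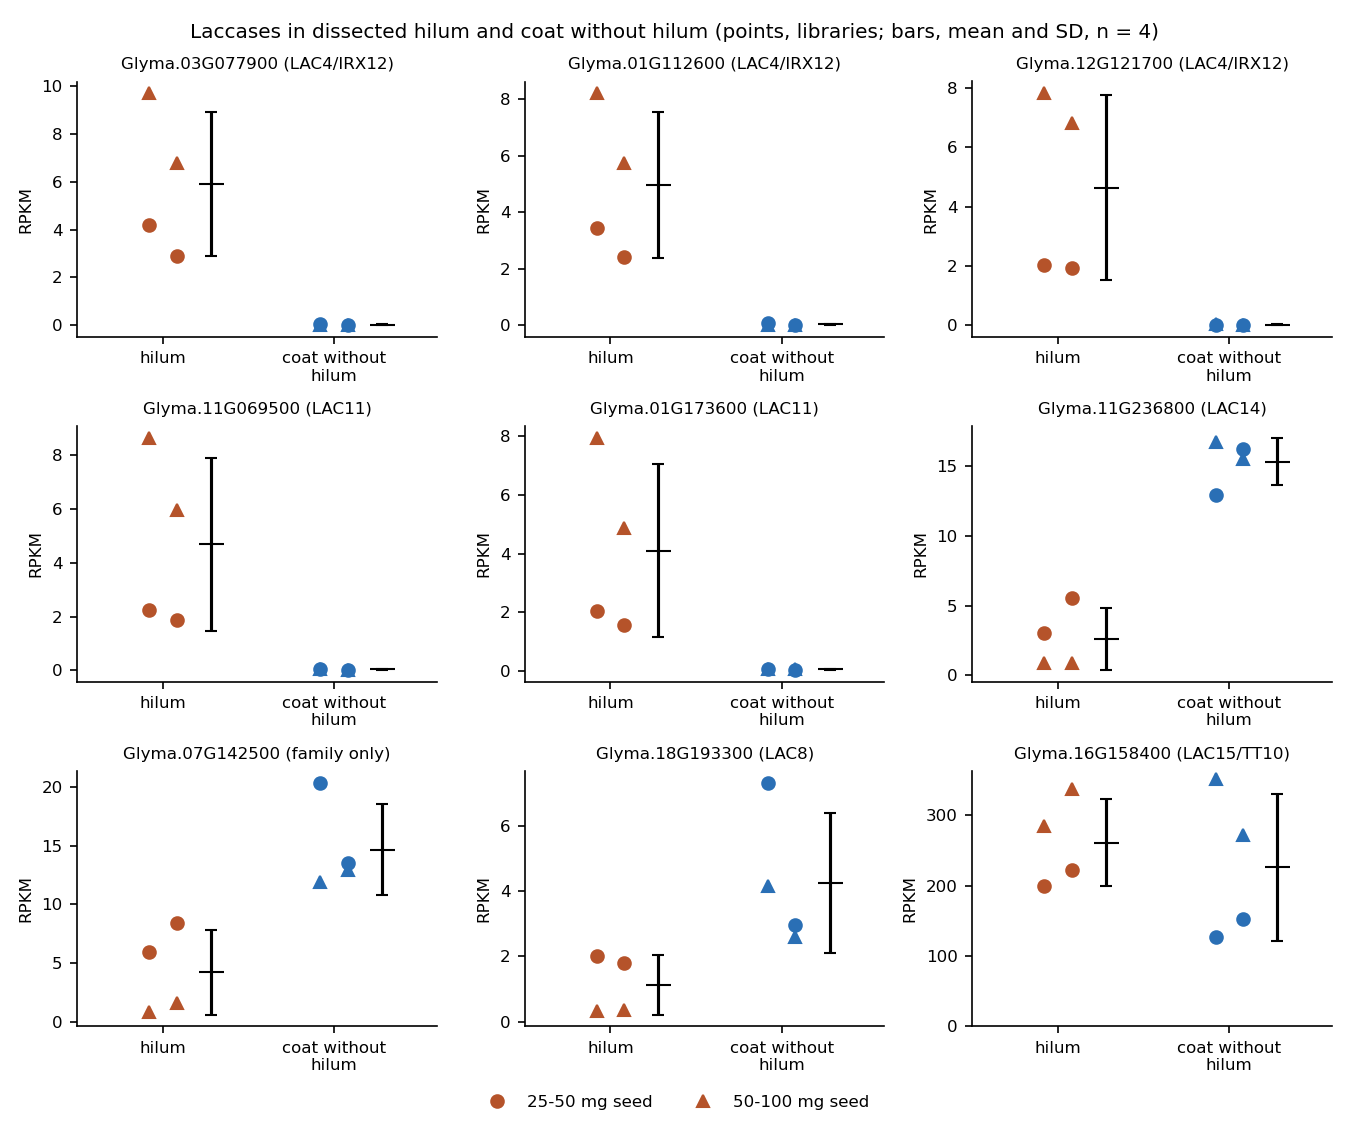
RPKM of the 8 laccases called between hilum (left) and coat without hilum (right), and of Glyma.16G158400, with 1 point per library (circles, 25-50 mg; triangles, 50-100 mg) and the mean with SD (n = 4). The 5 LAC4 and LAC11 genes lie near 0 in every coat without hilum, Glyma.11G236800, Glyma.07G142500 and Glyma.18G193300 lie higher there, and the ranges of Glyma.16G158400 overlap.

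Glyma.16G158400 was abundant on both sides of the dissection. It had 199.8, 222.0, 285.0 and 336.8 RPKM in hilum, against 127.1, 152.3, 351.2 and 272.3 in coat without hilum, and the ranges overlapped (log2 difference 0.30 ± 0.19, limma adjusted p = 0.255). Its means were 260.9 ± 62.1 in hilum and 225.7 ± 104.9 in coat without hilum (SD, n = 4 each). Markers of vessels moved with the hilum: the summed RPKM of 12 genes described as xylem cysteine peptidases, cellulose synthase A4 or irregular xylem was 262.3 to 619.3 in hilum and 15.0 to 199.7 in coat without hilum. Their part in the laccase differences was not tested.

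By seed weight, no laccase was called between 50-100 mg and 25-50 mg parts in the fit with tissue as the other term, where 1.07% of all genes were called, 0.386% higher and 0.683% lower. Of the 13 tested laccases, 9 had an unadjusted p under 0.05, as had 24% of all genes. The libraries come in a pair of number series that deviate together, and with that series as a block 3 of 13 laccases were higher at 50-100 mg, where 8.98% of all genes were called, 3.97% higher and 5.01% lower: Glyma.16G158400 (0.85 ± 0.19, limma adjusted p = 0.0419), Glyma.02G076300 (0.83 ± 0.16, limma adjusted p = 0.0326) and Glyma.02G076400 (0.62 ± 0.11, limma adjusted p = 0.0313). Glyma.16G158400 averaged 311.3 ± 38.5 RPKM at 50-100 mg and 175.3 ± 43.3 at 25-50 mg (SD, n = 4 each, both tissues together), and its ranges did not overlap, as for 5.27% of all genes. These are the 3 genes that may share reads.

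Other genes of phenolic coupling and wall building were counted from lists of descriptions, beside the median log2 difference of -0.11 over all genes tested. Of all genes tested, 13.4% were called higher in hilum and 26.6% lower. Of 14 genes tested that are described as cellulose synthases or irregular xylem, in hilum against coat without hilum, 12 were higher and 0 were lower (median 1.603), among them Glyma.09G051100 (cellulose synthase A4) at 180.2 ± 54.1 RPKM in hilum and 42.1 ± 46.8 in coat without hilum. Of 41 monolignol and phenylpropanoid enzymes, 13 were higher and 8 lower (median 0.54). The members with the largest differences there were lower: 3 O-methyltransferase 1 genes, led by Glyma.20G176100 at 64.2 ± 64.8 in hilum and 310.5 ± 133.4 in coat without hilum.

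Class III peroxidases also oxidise monolignols but use hydrogen peroxide. They split into 14 higher and 9 lower of 45 (median 0.03), where 13.4% of all genes tested were higher and 26.6% lower. The largest rise was that of Glyma.19G091800, at 65.2 ± 21.0 RPKM in hilum and 0.0482 ± 0.0387 in coat without hilum. Dirigent proteins, which steer the coupling of phenoxy radicals, split into 6 higher and 5 lower of 15 (median 0.08). Of 21 other multicopper oxidases, 1 was higher, 8 were lower and 12 were not called (median -0.56). Of 37 flavonoid enzymes, 1 was higher, 17 were lower and 19 were not called (median -0.64). The laccase median was 0.30 over the 13 tested. Of those 13, 5 passed the filter only through the hilum and 0 only through coat without hilum, so this median is no support.

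Coats of heavier seeds held almost none of the 3 coat laccases that were low in hilum. Late coats (300-400 and 400-500 mg) of T157, Richland, W44 and W43 were set against early coats (10 to 100 mg) of the same lines with line as a term, 8 libraries against 11. The late libraries of T157, Richland and W43 carry a run of consecutive numbers that holds none of their early libraries. In those lines the number series and the seed weight cannot be told apart. Of 29263 genes 57.7% were called, 26.6% higher and 31.1% lower, and of 9 laccases tested 2 were higher, 3 lower and 4 not called. The other 50 members had a mean under 1. All 5 called members passed that filter only through the group where they were high, so they had to differ and their number is no support.

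Glyma.07G142500 reached at most 0.311 RPKM in late coats, with a median near 0, and ranged from 6.89 to 22.9 in early coats. Its log2 difference was -3.65 ± 0.17 (limma adjusted p = 2.3e-12). Glyma.11G236800 reached at most 0.00508 in late coats, against 1.79 to 21.2 in early coats (-3.30 ± 0.29, limma adjusted p = 8e-09). Glyma.18G193300 reached at most 0.0650 in late coats, against 1.59 to 5.70 in early coats (-1.99 ± 0.14, limma adjusted p = 6.6e-10). No late library overlapped an early one for these 3 genes. Of the 9 laccases tested 4 had such ranges without overlap, against 20.6% of all genes tested. Those 4 are called members that passed the filter only through the group where they were high, so this count is no support either.

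Glyma.11G233400 (LAC5) went the other way. It had 6.31 and 12.3 RPKM in late T157 coats, 1.98 and 3.54 in Richland, 0.757 and 2.39 in W44 and 0.872 and 2.18 in W43, all above the early range of 0.0126 to 0.605 (1.59 ± 0.21, limma adjusted p = 1.95e-06). T157 held the highest levels. The late W55 coats, which were not in this fit, stood at 0.307 and 0.479, within that early range. Glyma.11G069500 (LAC11) was called higher in late coats at 2.45 ± 1.88 (SD, n = 8) against 0.764 ± 0.671 in early coats (SD, n = 11), with a log2 difference of 0.71 ± 0.30 (limma adjusted p = 0.0453). The ranges overlapped, W44 was lower in late than in early coats, and the call was lost for 11 of the 19 libraries when each was left out in turn, with adjusted p up to 0.125 without the W43 300-400 mg library.

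Glyma.16G158400 was highest at 50-100 mg in T157, Richland and W43. Across weight classes it stood at 84.0, 209.0, 102.6 and 108.8 in T157 (10-25, 50-100, 300-400 and 400-500 mg), and at 59.8, 226.3, 73.0 and 61.9 in Richland. W43 had 95.5, 208.1, 300.2, 153.3 and 118.6 from 10-50 to 400-500 mg. W44 had 184.3 at 10-50 mg, 151.1 at 25-50 mg, 38.5 at 50-100 mg, 196.4 at 75-100 mg, 95.3 at 300-400 mg and 78.0 at 400-500 mg. Scaled to alignments in described models, the W44 50-100 mg coat stood at 87.8. The other coats are given unscaled and would also rise somewhat if scaled. Late coats averaged 99.0 ± 29.1 (SD, n = 8) and early coats 159.4 ± 80.9 (SD, n = 11), with a log2 difference of -0.50 ± 0.32 (limma adjusted p = 0.195). Without the W44 50-100 mg library the difference was -0.65 and was called (limma adjusted p = 0.0407).

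**Figure D3:**
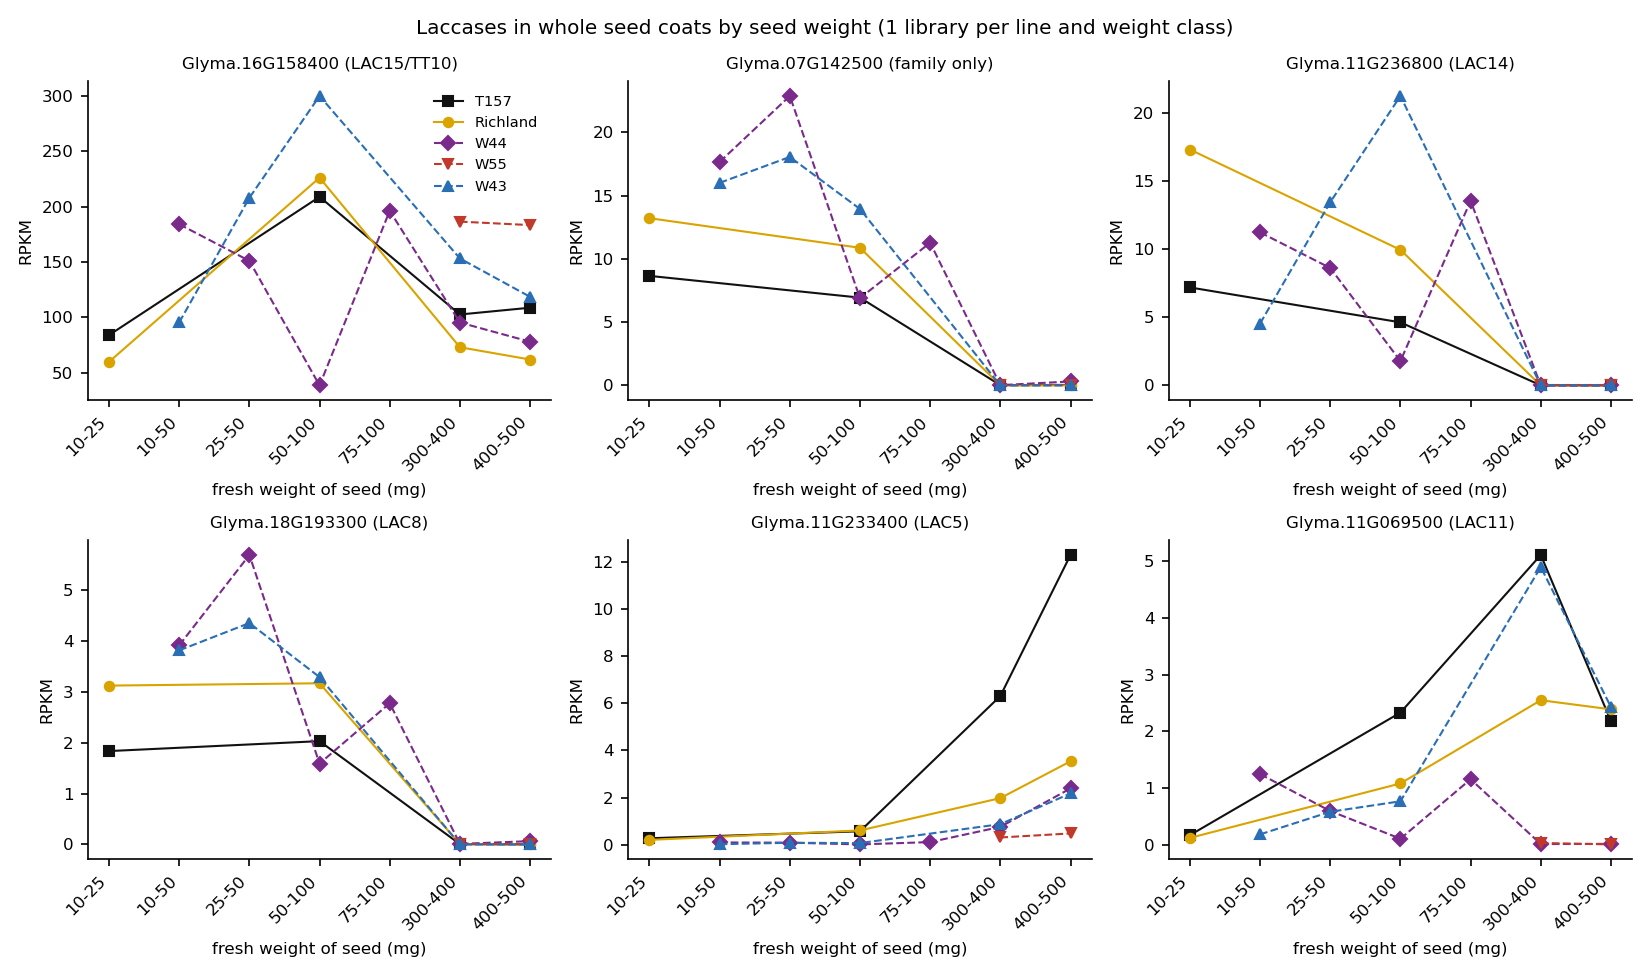
RPKM of 6 laccases in whole seed coats against the fresh weight class of the seed (mg), with 1 point per library and 1 line per soybean line. Glyma.07G142500, Glyma.11G236800 and Glyma.18G193300 lie near 0 in every coat of 300 mg or more. Glyma.11G233400 is highest in those coats in T157, Richland, W44 and W43, and is at 0.307 and 0.479 in W55. Glyma.11G069500 is near 0 in those coats in W44 and W55 but not in T157, Richland or W43.

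Pigmented and yellow coats were compared within the pairs of lines that the study set up, and no laccase was called in any of them. In T157 against Richland, with weight class as a block, 0% of 29080 genes were called by limma (4647 had an unadjusted p under 0.05), and 0 of the 10 laccases tested had an unadjusted p under 0.05 or ranges without overlap, the last found for 1.8% of all genes. Glyma.16G158400 averaged 126.1 ± 56.3 RPKM in T157 coats and 105.3 ± 80.9 in Richland coats (SD, n = 4 each; log2 difference 0.41 ± 0.17, limma adjusted p = 0.321), and was higher in T157 in 3 of 4 weight classes. Glyma.11G236800 had 7.18 and 4.62 in early T157 coats and 17.3 and 9.94 in early Richland coats (-0.53 ± 0.24 over all 4 classes, limma adjusted p = 0.362).

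In W44 against W43, 0% of 28909 genes were called by limma (1658 at an unadjusted p under 0.05), and 0 of 7 laccases had an unadjusted p under 0.05. None of the 7 had ranges without overlap, against 0.36% of all genes. Glyma.16G158400 averaged 109.4 ± 58.2 in W44 and 175.1 ± 81.8 in W43 over the 5 shared weight classes (-0.75 ± 0.47, limma adjusted p = 0.862). Without the W44 50-100 mg library, the one with 56.2% of its alignments in undescribed models, the difference was -0.20. In W55 against W43, 0.304% of genes were called, 0.0761% higher and 0.228% lower, and 0 of 7 laccases, of which 1 had an unadjusted p under 0.05. Glyma.16G158400 had 186.6 and 183.5 in late W55 coats and 153.3 and 118.6 in late W43 coats (0.40 ± 0.68, limma adjusted p = 1), without overlap, as was true of 59.7% of all genes with 2 libraries a line. Calls that miss the threshold do not show that the lines were alike.

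The LAC11 pair was near 0 in late coats of both black Williams mutants, a pattern singled out after the values were seen. Both genes had a mean RPKM under 1 over the Williams coats fitted together, so they were not tested there. At 300-400 and 400-500 mg, Glyma.11G069500 stood at 0.0207 and 0.0246 RPKM in W44 and 0.0402 and 0.0147 in W55, against 4.89 and 2.43 in W43. Glyma.01G173600 stood at 0.0165 and 0.0204 in W44 and 0.0501 and 0.0196 in W55, against 2.62 and 1.34 in W43. All 4 W44 and W55 libraries lay near the level of coat without hilum. The other pigmented line did not share this: T157 had 5.10 and 2.18 of Glyma.11G069500, against 2.55 and 2.39 in Richland. In younger coats the W44 levels (0.115 to 1.25) overlapped those of W43 (0.191 to 0.773).

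Other hilum genes were set beside this pair. The summed RPKM of 12 genes with the clearest excess in hilum (log2 difference of 4 or more and a mean under 0.5 in coat without hilum, laccases left out, chosen from these same data) was 13.9 and 17.7 in late W44 coats, 8.49 and 8.60 in W55 and 16.7 and 21.8 in W43. In coat without hilum that sum was 1.05 to 1.499. The xylem sum was 10.5 and 10.3 in W44, 72.9 and 79.0 in W55 and 63.7 and 29.6 in W43. The hilum laccase Glyma.12G121700 stood at 0.0606 and 0.0428 in late W44 coats, 1.22 and 0.586 in W55 and 1.11 and 0.634 in W43. It and the xylem sum were low in W44 and not in W55. How much hilum each coat sample held was not tested. The late W44 libraries belong to another number series than the late W43 and W55 libraries, so in W44 the series and the line cannot be told apart.

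**Figure D4:**
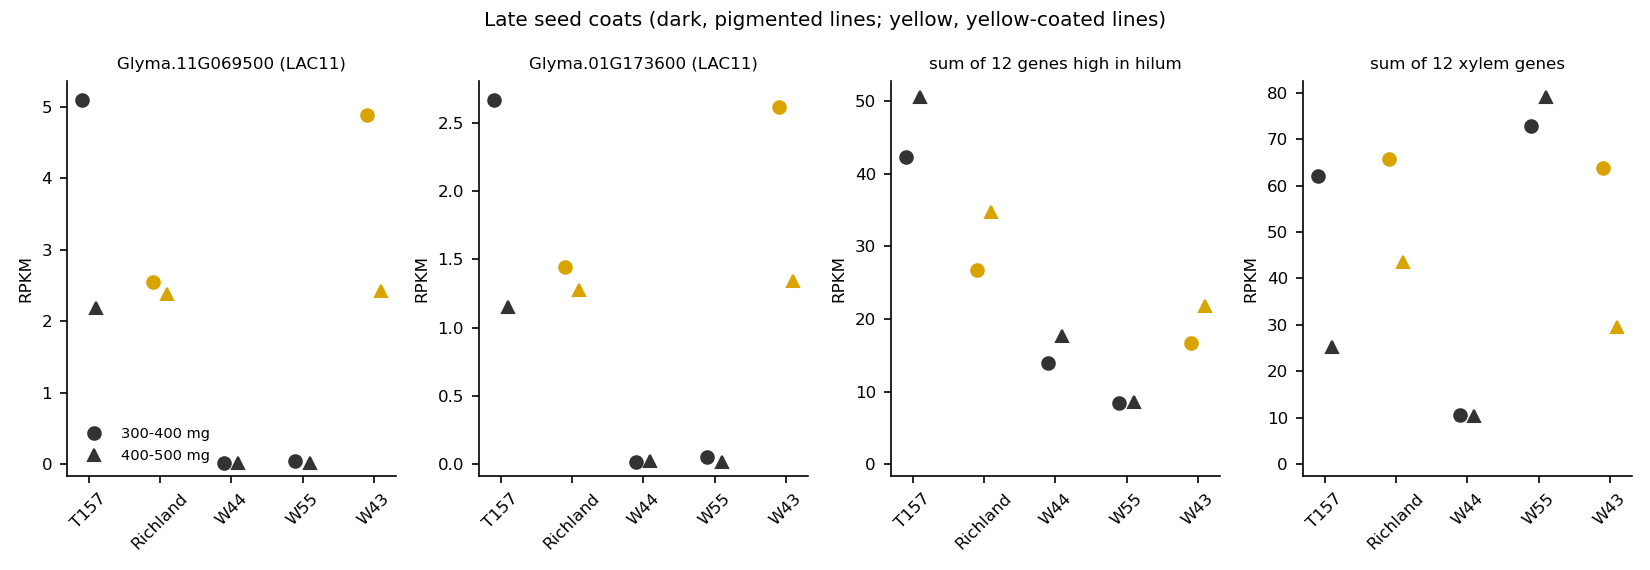
RPKM in late coats of 5 lines (circles, 300-400 mg; triangles, 400-500 mg) for the LAC11 members Glyma.11G069500 and Glyma.01G173600, for the sum of 12 genes high in hilum and for the sum of 12 xylem genes. The LAC11 members are near 0 in W44 and W55 and at 1.15 or more in T157, Richland and W43, while the sum of hilum genes is 8.49 or more in every late coat.

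Very young coats had a summed laccase RPKM of 5.02 and 5.82 in W55 (44.0 and 30.1 scaled to alignments in described models), 78.2 in UC9, 24.2 in UC508 and 26.5 in UC501. In 5-6 mg coats Glyma.16G158400 stood at 3.07 and 2.74 RPKM in W55, 44.0 in UC9, 4.47 in UC508 and 4.11 in UC501. Scaled to alignments in described models, the W55 values were 26.9 and 14.2. The values and sums of UC9, UC508 and UC501 are given unscaled and would also rise somewhat if scaled. Glyma.07G142500 led in UC508 at 7.83, and Glyma.11G236800 led in UC501 at 6.14. Between the defective coat of UC508 and the normal coat of UC501, Glyma.07G142500 stood at 7.83 in UC508 and 6.11 in UC501 and Glyma.11G236800 at 4.17 in UC508 and 6.14 in UC501, with 1 library each and no test.

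Whole seeds 5 days after flowering were led by Glyma.07G142500 in all 4 libraries, at 9.81 and 14.2 in W55, 11.5 in T157 and 19.0 in Richland. Glyma.18G193300 stood at 4.06 and 5.66 in W55, 2.45 in T157 and 5.15 in Richland. Glyma.16G158400 stood at 1.06 to 1.55. Glyma.11G236800 stood at 0.124 to 1.64 and exceeded Glyma.16G158400 in T157 alone, at 1.64 against 1.19. The brown RM38 coat of 25-50 mg held 234.0 RPKM of Glyma.16G158400 and 38.3 of Glyma.02G076300.

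Young roots held 31 laccases at an RPKM of 1 or more in each library. Against young leaves, 22 of the 31 laccases tested were higher and 1 was lower, where 58% of all 31734 genes were called, 38.6% higher and 19.4% lower. Ranges without overlap were found for 26 of the 31 and for 81.2% of all genes. The median log2 difference over all genes tested was 0.32 and that over the laccases 1.96. Roots were of W55 and W54 and leaves of T157 and Richland, so tissue and line cannot be told apart. Of the 31 members, 19 passed the filter only through root and 2 only through leaf, so these had to differ, and neither the counts nor the laccase median are support.

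The largest difference was that of Glyma.07G142600 (family description alone), with 20.2 and 26.8 RPKM in the W55 and W54 roots and 0.00428 and 0.00591 in the T157 and Richland leaves (4.59 ± 0.20, limma adjusted p = 0.000106). The LAC3 members Glyma.14G198900 and Glyma.02G231600 followed. Glyma.14G198900 had 20.2 and 24.2 in root, against 0.0306 and 0.0543 in leaf (4.47 ± 0.18), and Glyma.02G231600 had 19.2 and 22.4 in root, against 0.0189 and 0.0698 in leaf (4.38 ± 0.17). These genes were nearly absent from coats: the highest coat level of Glyma.14G198900 was 0.574 and that of Glyma.02G231600 was 0.127.

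Glyma.18G193400 (family description alone) had 15.5 and 19.7 RPKM in root, against 0 and 0.00405 in leaf, and Glyma.U027400 (LAC7) had 13.4 and 10.6 in root, with no read in either leaf library. LAC5 members Glyma.14G056100 and Glyma.02G261600 averaged 13.7 ± 1.8 and 11.2 ± 1.4 in root and 0.257 ± 0.124 and 0.223 ± 0.0813 in leaf (SD, n = 2 each). LAC4/IRX12 members Glyma.14G062300, Glyma.02G224800 and Glyma.14G191500 averaged 11.6, 10.1 and 9.43 in root, against 0.103, 0.656 and 0.683 in leaf. The adjusted p of these 7 genes was 0.000253 or less (limma).

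The hilum laccases Glyma.03G077900 and Glyma.01G112600 were also root genes, and had leaf levels well above those of the root-leaning members just named. Glyma.03G077900 had 25.0 RPKM in both roots, against 3.67 and 4.57 in leaf (2.35 ± 0.21, limma adjusted p = 0.000416). Glyma.01G112600 had 22.1 in both roots, against 3.20 and 3.82 in leaf (2.36 ± 0.20, limma adjusted p = 0.000353). The other hilum LAC4 member, Glyma.12G121700, stood at 0.631 and 0.646 in root and 0.104 and 0.198 in leaf, far under its hilum levels. The only member called lower was Glyma.18G177400 (LAC17), named here after its values were seen, with 1.24 and 1.30 in root and 4.74 and 3.35 in leaf (-1.14 ± 0.19, limma adjusted p = 0.00464).

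**Figure D5:**
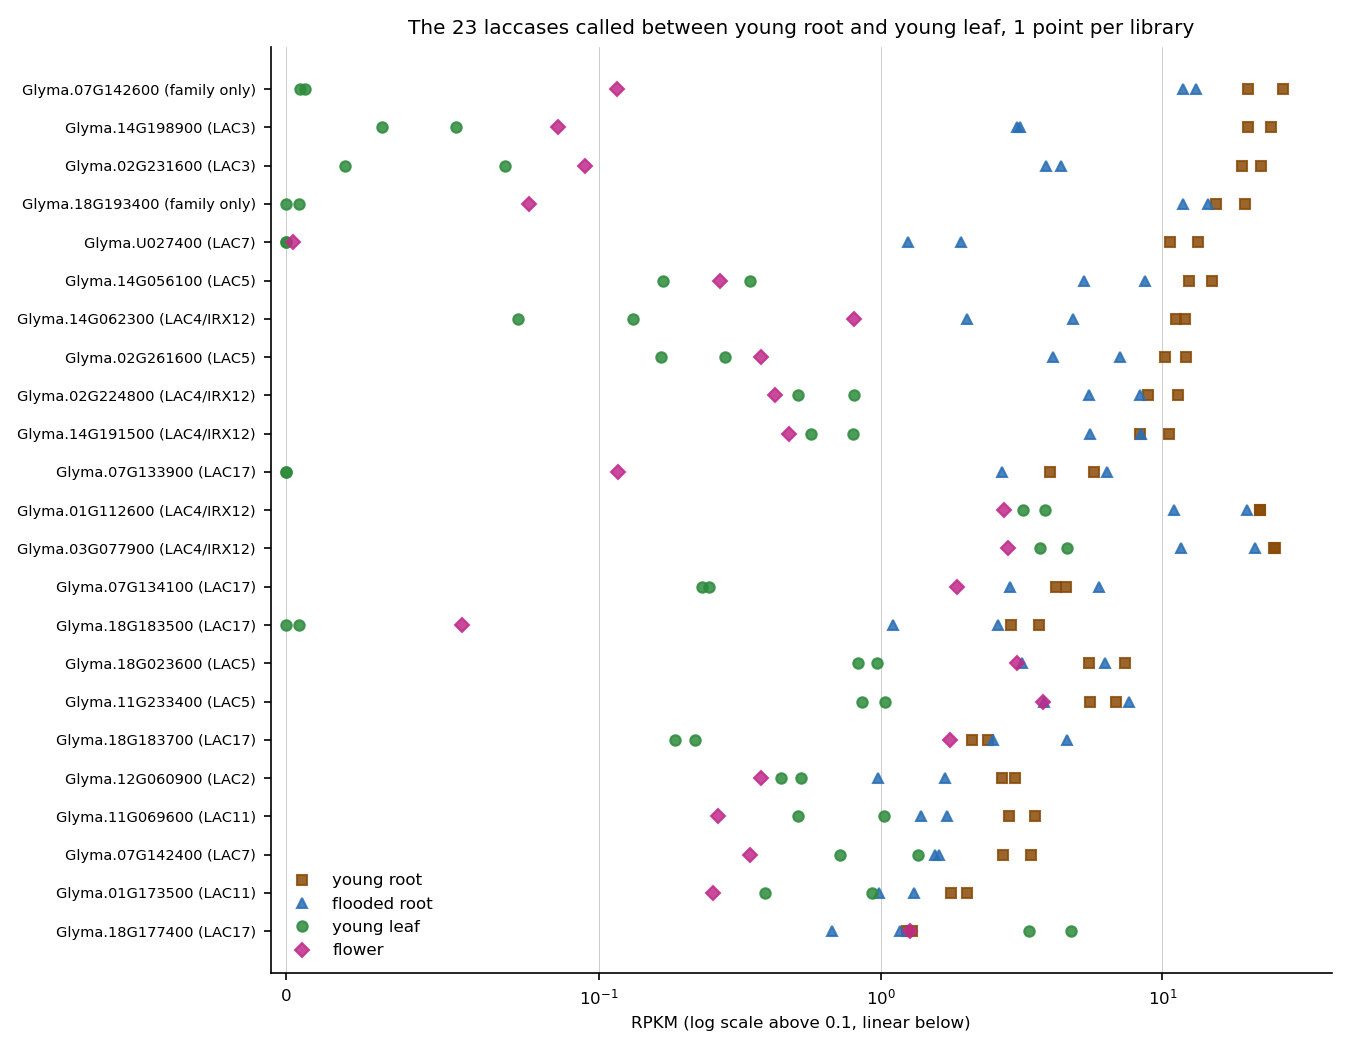
RPKM of the 23 laccases called between young root and young leaf, 1 row per gene and 1 point per library, on a scale that is logarithmic above 0.1 and linear below, for young root (squares), flooded root (triangles), young leaf (circles) and flower (diamond). Young root points lie right of young leaf points in every row but the lowest, Glyma.18G177400.

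Flooded roots had 1 library per time and no unflooded partner of their age, so they are not compared with the 4-week roots. At 24 h and 12 h of flooding Glyma.03G077900 stood at 21.3 and 11.6 RPKM, Glyma.01G112600 at 19.9 and 11.03 and Glyma.18G193400 at 14.5 and 11.8. Of the 34 members at 1 or more in either library, 29 were higher at 24 h, against 46.2% of all 31756 such genes. The median ratio was 1.596 for laccases and 0.979 for all genes. All 34 reached 1 at 24 h but only 27 did at 12 h. Members that reached 1 at 24 h alone had to be higher there, so neither the count of 29 nor the median ratio is support. At least 2-fold higher were 5 of the 34, against 7.49% of all genes, and 0 were at least 2-fold lower, against 2.13%. The summed RPKM of genes described as oleosin, cruciferin, 2S or late embryogenesis abundant was 18455 at 24 h and 12599 at 12 h. That of photosystem and light-harvesting genes was 672 at 24 h and 359 at 12 h, and the part of either was not tested. The LAC3 members that were prominent in young roots stood at 3.03 and 3.13 (Glyma.14G198900) and 3.85 and 4.37 (Glyma.02G231600).

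The leaves of T157 and Richland, 1 library each, differed in a few members. Of 20 laccases at an RPKM of 1 or more in either leaf, 16 were higher in T157, as were 74.6% of all 28394 such genes. At least 2-fold higher were 8 of the 20, against 11.9% of all genes, and at least 2-fold lower were 0, against 3.87%. All 8 reached an RPKM of 1 in the T157 leaf alone, so they had to be higher there and their number is no support. The LAC3 members Glyma.18G057200 and Glyma.11G164000 stood at 9.76 and 7.81 in the T157 leaf and 0.536 and 0.392 in the Richland leaf. Glyma.10G219100 (LAC15/TT10) stood at 1.27 in T157 and 0.0344 in Richland. The ratio was wider still for Glyma.20G172600 (LAC15/TT10), at 3.93 in T157 and 0.0111 in Richland, and for Glyma.10G219200 (LAC14), at 2.05 in T157 and 0.0331 in Richland, both named after their values were seen. There is no replicate behind these values. The photosynthesis gene sum was 21155 in the T157 leaf and 46440 in the Richland leaf, and its part was not tested. In flower, Glyma.11G233400 (LAC5) led at 3.78, followed by Glyma.11G164000 at 3.09 and Glyma.18G023600 (LAC5) at 3.04.

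Some neighbouring laccases were highest in different tissues. By gene ID, 30 members lie in 12 runs of adjacent genes (7 of 2, 4 of 3 and 1 of 4). Counting only members that reached an RPKM of 1, and young and flooded root as 1 tissue, 10 runs keep 2 or more members, and in 9 of them the highest libraries came from different tissues. The share among members that are not neighbours was not computed. In the run of Glyma.07G142400, Glyma.07G142500 and Glyma.07G142600 the middle gene was highest in coat (22.9 RPKM) and both flanking genes in young root (3.41 and 26.8). The lower flanking genes of the runs are named for their place alone. The run of Glyma.18G193200, Glyma.18G193300 and Glyma.18G193400 had the same order: the middle gene peaked in coat without hilum at 7.33, and the flanking genes in young root at 0.516 and 19.7. Glyma.07G142600 was counted at 0.0919 or less in every whole coat but that of W44 at 400-500 mg, where it stood at 1.07.

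Glyma.11G069500 and Glyma.01G173600, the hilum members closest to LAC11, each have a LAC11 neighbour. Those neighbours, Glyma.11G069600 and Glyma.01G173500 (named after their values were seen), were highest in young root, at 3.51 and 2.03. They were higher in root than in leaf (1.26 ± 0.21, limma adjusted p = 0.00412, and 0.83 ± 0.21, limma adjusted p = 0.0188). Both neighbours passed the filter on mean RPKM only through root, so they had to differ and these calls are no support. The hilum members themselves had 2.57 and 3.06 (Glyma.11G069500) and 2.52 and 3.07 (Glyma.01G173600) in roots, against 2.93 and 2.63 and 3.08 and 2.65 in leaves, ranges that overlap.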

How the data were processed

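The deposited values are RPKM per transcript model, in 2 tables of 38 and 8 libraries. Reads were aligned with Bowtie, per the submitters' processing notes. For its version and settings, the genome build and the counting of multiply matching reads, the sources used here give nothing. The RPKM tables of the authors hold 88647 models of 56044 genes. Each value divided by what 1 read is worth gave a whole number of reads within 0.01 for 100% of values, which gave the counted alignments per library. A further 4 value columns that match no sample were not used.

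Each gene was represented by its longest cDNA model. Genes with a mean RPKM of 1 or more in the libraries compared were tested on log2(RPKM + 1) with limma 3.58.1 in R 4.3.3 (lmFit and eBayes with trend), and p-values were adjusted by the Benjamini-Hochberg method over all genes tested, with a threshold of 0.05. Fold changes on this scale understate those of low genes. The fits were also run on simulated counts. Those were drawn independently per library, with only the tested change planted and no other effect of line, weight class or number series. That run cannot check how such effects act. Hilum was tested with weight class as a term, T157 against Richland and the Williams lines with weight class as a term, and late against early coats with line as a term. Tables were not compared by any test. Ratios between single libraries set levels under 3 reads to 3 reads. The dissected libraries carry numbers of a lower and a higher series, and all 6 pairs of libraries of the lower series deviated together (correlations of deviations 0.442 to 0.655), so the series was also fitted as a block.

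Named were all laccases called in a comparison (at most the 10 with the largest changes), the 10 highest by RPKM and, beside them, members reaching 5. The members, lists and comparisons were chosen with earlier results of these data known. Strand use per library is not known, since both stranded and unstranded TruSeq kits are named in the labels.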

Additional observations from a re-analysis of the deposited data

Results flagged for a closer look

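The values of 1 gene in the coats of 1 line (4 to 10 libraries) were examined for 1 library far from the rest. Of 46 such sets of values, 7 had such a library. A rate of about 1 in 20 by chance holds only for independent sets of like libraries. These sets share libraries, and each spans several weight classes, so that rate does not apply. In the Richland 50-100 mg coat Glyma.16G158400 stood at 226.3 RPKM (the other Richland coats at 59.8 to 73.03), Glyma.02G076300 at 44.5 (7.405 to 9.62), Glyma.02G076400 at 20.8 (2.353 to 4.449) and Glyma.03G077900 at 1.06 (0 to 0.05453). In the T157 50-100 mg coat Glyma.03G077900 stood at 1.10 (the other T157 coats at 0 to 0.01516). In the W44 400-500 mg coat Glyma.07G142600 stood at 1.07 (the other W44 coats at 0 to 0.05361) and Glyma.11G233400 at 2.39 (0.01256 to 0.7568). Each weight class is 1 library, so a library and its weight class cannot be told apart.

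The LAC11 pair went in opposite directions with seed weight in different lines, with every late library of a line on 1 side of all its early libraries. Glyma.11G069500 averaged 2.47 in late Richland coats and 3.66 in late W43 coats, both above their early coats, and 0.0226 in late W44 coats, under them. Glyma.01G173600 averaged 1.36 in late Richland and 1.98 in late W43 coats, above their early coats, and 0.0185 in late W44 coats, under them. This difference between lines was not tested. The late Richland and W43 libraries belong to another number series than the late W44 libraries, so the series and the line cannot be told apart.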

How the results depend on the processing

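Of 107 alternative counts of called laccases, 103 stayed within 1.5 times the reported count. The comparison of weight classes of dissected parts and those of pairs of lines start from a count of 0, where 0 again was taken as the same. As reported, no gene at all was called in T157 against Richland or W44 against W43, so agreement there says little about stability. With no filter on low values, 28 laccases were called in hilum against coat without hilum (25 higher, 3 lower) where 30.9% of all genes were, and 27 in late against early coats (3 higher, 24 lower), where 50.9% were. W43 and W44 alone gave 3 called in late against early coats, where 40.1% of all genes were. The block for library-number series gave 3 called between weight classes of dissected parts and changed no other count; in hilum against coat it left 8. Leaving out each library in turn gave 8 called in hilum, 0 between weight classes, 0 in each pair of lines, 4 to 5 in late coats and 18 to 27 in root. Over all genes, W55 against W43 called as few as 0 where 88 are reported, weight class 0 to 2632 where 313 are reported, and root against leaf as few as 9030 where 18412 are reported. Of 574 alternative values of single genes, 548 kept direction and call, 24 lost the call and 2 gained it, and none changed direction. Scaling to alignments in described models was chosen after seeing the data. No sequence or genome was used, and the unknown counting of multiply matching reads limits Glyma.02G076300, Glyma.02G076400 and the LAC11 pair.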
